A study of Danio rerio with 9 samples.

Results

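The alx genes encode paired-class homeodomain transcription factors related to Drosophila aristaless. In vertebrate embryos they are expressed in the cranial neural crest that forms the frontonasal skeleton and the tissue around the eye, and in the mouse Alx4 is also known for its role in the limb bud. Loss of ALX1 or ALX4 in people is known to cause frontonasal dysplasia. Zebrafish have one alx1 and a pair of ALX4 duplicates, alx4a and alx4b. The genes described were the 3 rows of the deposited tables with the symbols alx1, alx4a and alx4b, out of 22337 genes, and all 3 passed the filter on low counts.

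The tables hold RNA sequencing of 9 single whole zebrafish embryos, 4 with normal eyes (numbers 3, 4, 6 and 7) and 5 with coloboma (numbers 3, 4, 5, 6 and 7). In coloboma the choroid fissure of the eye fails to close. All embryos came from incrosses of fish of genotype zic2aGBT133/+; zic2bUW1127/+, carriers of one disrupted copy each of the zinc-finger genes zic2a and zic2b. They were raised at 29 °C without treatment to about 25 hours post fertilization, and each was 1 library and 1 replicate. The labels gave no genotype for single embryos, so an embryo of either group may carry any combination of the alleles, and the tag WT in the columns of the normal embryos was not explained. The study's stated subject is zic2 in crest around the eye and in the choroid fissure, and the comparison here asks whether alx transcripts differ between embryos with and without the eye defect.

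Library totals ran from 40951722 to 54681474 counts in the normal embryos and from 20461180 (coloboma embryo 5) to 59233104 in the coloboma embryos. The disrupted genes did not pass edgeR's test as whole-gene counts, with log2 fold changes of 0.11 (adjusted p = 0.733) for zic2a and -0.03 (adjusted p = 0.908) for zic2b. Normalised zic2a counts ran from 44.2 to 54.9 CPM (counts scaled to library size with TMM factors) in normal and from 46.2 to 62.6 CPM in coloboma embryos, and zic2b from 45.3 to 54.7 CPM and from 46.3 to 49.2 CPM. These rows do not separate intact from disrupted transcripts and so checked no label. In the assembly GRCz12tu alx1 and alx4b lie on chromosome 18 and alx4a on chromosome 7, apart from zic2a on chromosome 9 and zic2b on chromosome 1.

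All 3 alx genes had lower mean levels in the coloboma embryos, alx1 by about 2.04 times, alx4b by 1.48 times and alx4a by 1.41 times. None passed the test that edgeR's quasi-likelihood method fitted across all genes, with p adjusted by Benjamini-Hochberg and a threshold of 0.05. Of the 21293 genes tested 0.207% passed, 0.127% as lower and 0.0798% as higher. At an unadjusted p of 0.05 all 3 were lower, against 4.9% of all genes tested (1044 genes). By the other count tools, DESeq2 called alx1 and alx4a lower, in a fit that called 2.58% of its genes, and limma voom called none of the 3. In whole embryos, fewer cells that express a gene and less RNA per cell cannot be told apart.

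**Figure D1:**
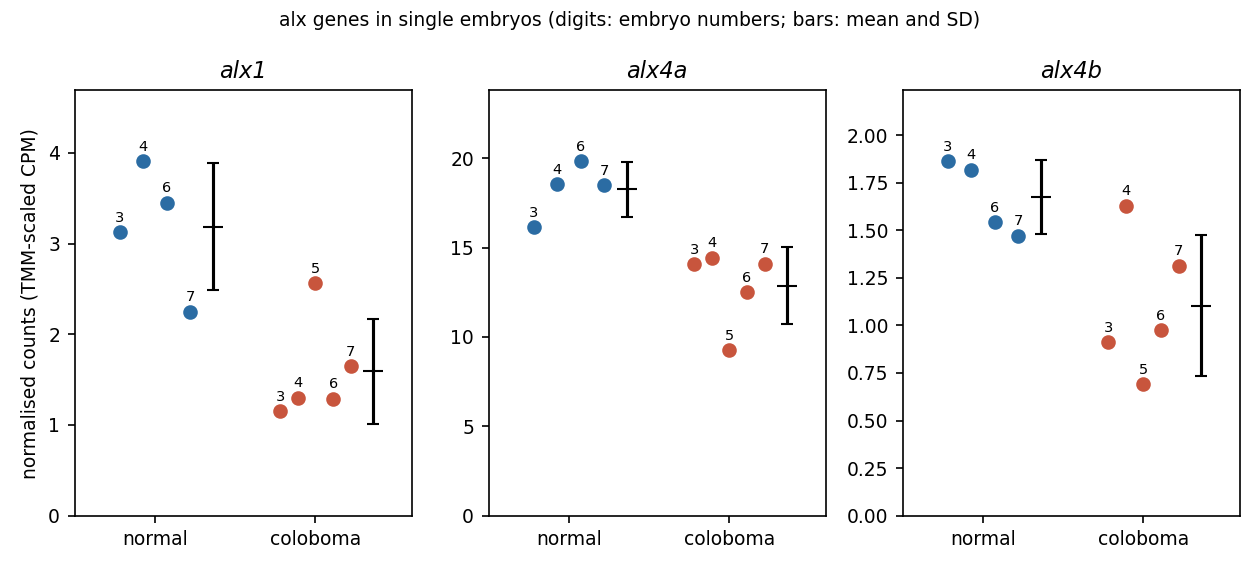
Normalised counts (TMM-scaled CPM, each axis from 0) of alx1, alx4a and alx4b in 4 normal and 5 coloboma embryos, 1 point per embryo with its number, and the group mean with its SD. For alx4a the groups do not overlap, while coloboma embryo 5 lies at 2.56 CPM for alx1, within the normal range, and coloboma embryo 4 at 1.63 CPM for alx4b.

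The estimated fold change was largest for alx1, a factor of cranial crest. Its normalised counts were 3.13, 3.91, 3.45 and 2.25 CPM in normal embryos 3, 4, 6 and 7. In coloboma embryos 3, 4, 5, 6 and 7 they were 1.15, 1.30, 2.56, 1.29 and 1.65 CPM. Thus 4 of the 5 coloboma embryos lay below every normal embryo, and coloboma embryo 5 lay above normal embryo 7. The group means were 3.18 CPM for normal (SD 0.700, n = 4) and 1.59 CPM for coloboma embryos (SD 0.575, n = 5). The log2 fold change was -1.03 ± 0.25 (SE; 95% interval -1.57 to -0.48), with an edgeR p of 0.00163 before and 0.150 after adjustment over all genes. A two-sided exact permutation of the 9 embryos gave p = 0.0238 and an adjusted p of 0.395 over all genes tested. That permutation test called 0 genes of the whole table. The splits of 9 embryos into 4 and 5 allow no p below 0.00794. With the number of genes that reached this p, it became 0.328 after adjustment. By its edgeR p, alx1 stood at place 231 of all genes tested. In TPM (transcript abundance scaled to gene length and library) the alx1 groups did not overlap, with 3.92 to 6.07 TPM in normal and 1.68 to 3.86 TPM in coloboma embryos. The nearest values were those of normal embryo 7 (3.92 TPM) and coloboma embryo 5 (3.86 TPM), whose order in CPM was the reverse. TPM carried no TMM scaling. The median log2 fold change over all genes tested was -0.07 by log2(TPM + 0.5), against 0.000747 by edgeR. Of all genes tested, 3.81% had every coloboma embryo below every normal embryo in TPM.

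The duplicate alx4a gave the clearest separation of the groups. Normal embryos 3, 4, 6 and 7 had 16.1, 18.6, 19.8 and 18.5 CPM. Coloboma embryos 3, 4, 5, 6 and 7 had 14.1, 14.4, 9.27, 12.5 and 14.1 CPM. Every coloboma embryo was below every normal embryo, as for 2.16% of all genes tested, with a gap from 14.4 to 16.1 CPM between the groups. The group means were 18.2 CPM for normal (SD 1.53, n = 4) and 12.9 CPM for coloboma embryos (SD 2.15, n = 5). The log2 fold change was -0.50 ± 0.13 (SE; 95% interval -0.78 to -0.22), with an edgeR p of 0.00248 before and 0.165 after adjustment. The two-sided exact permutation p was 0.00794, the smallest that the 9 embryos allow, and 0.328 after adjustment over all genes tested. In TPM the groups were also apart, with 4.76 to 6.71 in normal and 2.70 to 4.45 in coloboma embryos.

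The second duplicate, alx4b, was the least abundant. Its levels were 1.86, 1.82, 1.54 and 1.47 CPM in normal embryos 3, 4, 6 and 7. They were 0.912, 1.63, 0.690, 0.975 and 1.31 CPM in coloboma embryos 3, 4, 5, 6 and 7. The groups overlapped through coloboma embryo 4, which lay above normal embryos 6 and 7, while the other coloboma embryos lay below all normal ones. The group means were 1.67 CPM for normal (SD 0.196, n = 4) and 1.104 CPM for coloboma embryos (SD 0.369, n = 5). The log2 fold change was -0.57 ± 0.24 (SE; 95% interval -1.102 to -0.04), with an edgeR p of 0.0382 before and 0.399 after adjustment. A two-sided exact permutation gave p = 0.0476 and an adjusted p of 0.451. The edgeR interval reaches from a small difference to one of 2.15 times, so a change of the size seen for alx1 lies within it.

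Few reads lay behind the values of alx1 and alx4b, and more behind those of alx4a. Over the 9 embryos alx1 had 34 to 199 counts per library, alx4a 188 to 1144 and alx4b 14 to 89. The lowest, the 14 alx4b counts of coloboma embryo 5, has an exact 95% Poisson interval of 7.65 to 23.5 counts, which covers counting error only. Counting error alone would give alx4b a spread of 11.3% of the mean in normal embryos, where 11.7% was observed, and 14.98% in coloboma embryos, where 33.4% was observed. For alx4a the spread was 8.41% in normal and 16.7% in coloboma embryos, against 3.40% and 4.50% from counting. For alx1 it was 21.99% and 36.1%, against 8.20% and 13.8%. All 3 genes thus had a larger relative spread among coloboma than among normal embryos, a difference that was not tested. For alx1 and alx4a it rested on coloboma embryo 5, at 2.56 and 9.27 CPM. Coloboma embryos 3, 4, 6 and 7 had 1.15 to 1.65 CPM of alx1 and 12.5 to 14.4 CPM of alx4a. Normal embryos had 2.25 to 3.91 and 16.1 to 19.8 CPM.

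Compared per length, alx1 and alx4a were present at like levels in the normal embryos and alx4b was lower. The counts of alx4a were 5.73 times those of alx1 in normal embryos, but in TPM the ratio was 1.12, since 1 CPM corresponded to 1.59 TPM for alx1 and to 0.308 TPM for alx4a. Mean levels in normal embryos were 5.19 ± 1.04 TPM for alx1, 5.82 ± 0.844 TPM for alx4a and 1.28 ± 0.0842 TPM for alx4b (SD, n = 4). The levels of alx1 and alx4a overlapped across these 4 embryos, whereas alx4b was the lowest of the 3 in each of the 9 embryos. Mean levels in coloboma embryos were 2.47 ± 0.856 TPM for alx1, 3.88 ± 0.7103 TPM for alx4a and 0.808 ± 0.300 TPM for alx4b (SD, n = 5). Here alx4a was above alx1 in 4 of 5 embryos, coloboma embryo 5 being the exception with 2.70 TPM of alx4a and 3.86 TPM of alx1. All 3 were modestly expressed for a whole embryo. Of the genes tested, 41.8% had a mean TPM in normal embryos at or below that of alx1, 44.3% at or below that of alx4a and 17.5% at or below that of alx4b.

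The summed TPM of the 3 genes was 10.84, 13.03, 13.97 and 11.33 in normal embryos 3, 4, 6 and 7, and 6.26, 7.76, 7.06, 6.61 and 8.07 in coloboma embryos 3, 4, 5, 6 and 7. The sums did not overlap between the groups. This is no separate result, since alx1 and alx4a made up most of each sum and each was already apart in TPM. The embryo with the highest alx1 among the coloboma embryos, number 5, had a sum within the range of the others. Of the sum, alx1 made up 34.6 to 46.6% in normal embryos. It made up 26.7 to 33.1% in coloboma embryos 3, 4, 6 and 7, and 54.7% in coloboma embryo 5. The alx4b share was 10.5% in normal (SD 1.35, n = 4) and 11.1% in coloboma embryos (SD 3.28, n = 5).

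**Figure D2:**
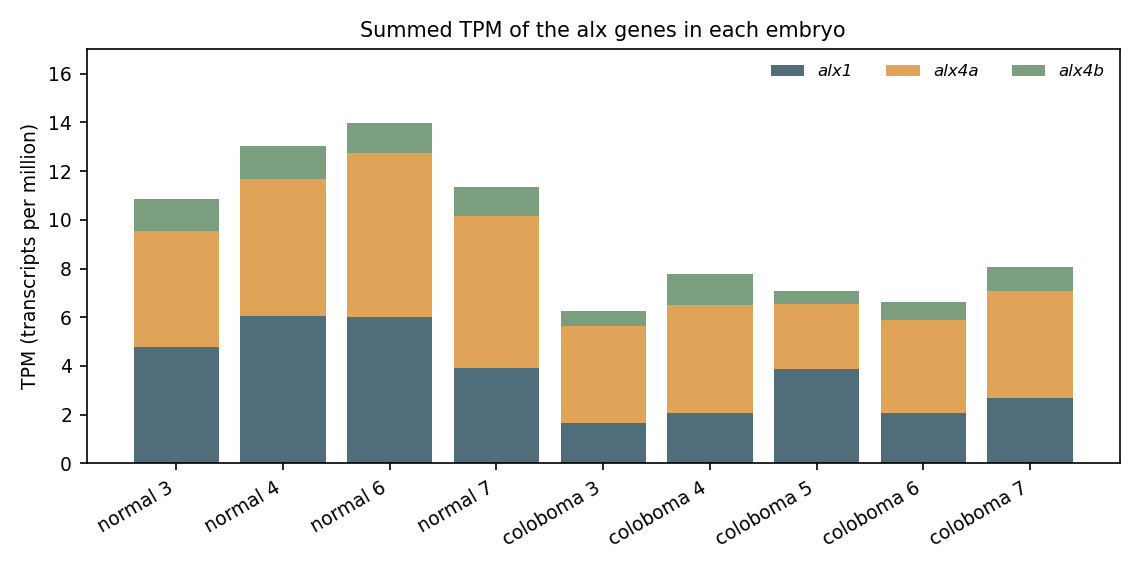
Stacked bars of TPM for alx1, alx4a and alx4b in each of the 9 embryos. The bars reach 10.84 to 13.97 TPM in normal and 6.26 to 8.07 TPM in coloboma embryos, and alx1 takes 54.7% of the bar in coloboma embryo 5.

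Whether one alx gene differed more than another was asked through the log2 ratio of their counts within each embryo, for the 3 possible pairs, by two-sided exact permutation with unadjusted p. The log2 ratio of alx1 to alx4a averaged -2.54 in normal (SD 0.35, n = 4) and -3.05 in coloboma embryos (SD 0.70, n = 5). The difference was -0.51 (95% interval -1.24 to 0.51; exact p = 0.214). Normal embryos ran from -3.03 to -2.24, coloboma embryos 3, 4, 6 and 7 lay between -3.59 and -3.09, and coloboma embryo 5 stood at -1.84, above all other embryos. Without coloboma embryo 5 the difference was -0.81 (exact p = 0.0286, the smallest that 4 against 4 allows). That embryo stood out in this same ratio, so this p is no separate support. With any other embryo left out the exact p was 0.143 to 0.375. The ratio of alx1 to alx4b differed by -0.38 (95% interval -1.23 to 0.66; exact p = 0.429), and by -0.72 without coloboma embryo 5 (exact p = 0.0286). With any other embryo left out its exact p was 0.411 to 0.771. The ratio of alx4a to its duplicate alx4b differed by 0.13 (95% interval -0.38 to 0.58; exact p = 0.524) and ran from 3.11 to 3.68 in normal and from 3.14 to 3.92 in coloboma embryos. So the pair of duplicates overlapped in their ratio between the groups, and the place of alx1 relative to both turned on a single embryo.

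**Figure D3:**
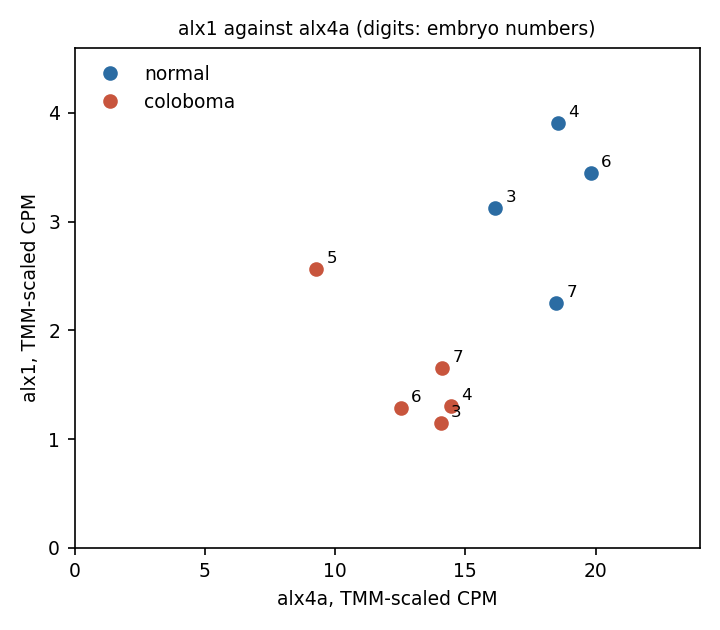
Normalised counts (TMM-scaled CPM, both axes from 0) of alx1 against alx4a, 1 point per embryo with its number. Coloboma embryo 5 combines the lowest alx4a (9.27 CPM) with the highest alx1 (2.56 CPM) of its group, and the other coloboma embryos lie together at low alx1.

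The order of likeness among the 3 alx genes turned on coloboma embryo 5. Over the 9 embryos Pearson's r of log2 CPM was 0.83 for alx4a and alx4b, 0.43 for alx1 and alx4a and 0.44 for alx1 and alx4b, and Spearman's rho was 0.77, 0.67 and 0.57. After the group means were subtracted Pearson's r became 0.64, -0.64 and -0.31. Without coloboma embryo 5 the values of r over 8 embryos were 0.66, 0.86 and 0.77, so that the duplicates had the highest r with that embryo and the lowest without it. These are descriptions of embryos that share a group difference, and the negative values for alx1 include coloboma embryo 5.

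Coloboma embryo 5 was also the shallowest library, and the calls changed when it was left out. Without it the log2 fold change of alx1 was -1.23 (edgeR adjusted p = 0.0283), past the threshold, in a fit that called 1.1% of its genes (235 against 44 with all embryos). Those of alx4a and alx4b were then -0.41 (adjusted p = 0.0647) and -0.46 (adjusted p = 0.344). With any other embryo left out the fold change of alx1 stayed between -1.16 and -0.91 and did not pass.

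**Figure D4:**
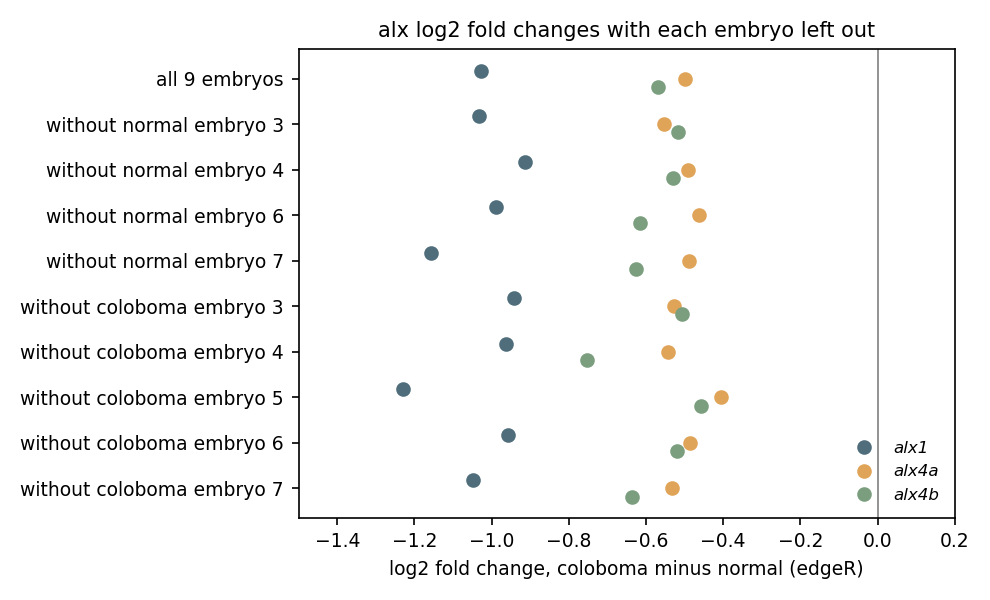
Log2 fold changes (coloboma minus normal, edgeR) of the 3 alx genes with all 9 embryos and with each embryo left out in turn. All points lie below 0, and alx1 reaches its lowest value, -1.23, without coloboma embryo 5.

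Markers of other tissues were set beside these values. In every tissue the summed levels overlapped between the groups, and of all markers only myhz1.2 passed over all genes. All 8 skeletal muscle markers had positive log2 values, among them myhz1.2, a fast myosin heavy chain, with a median of 0.87. All 8 were higher at an unadjusted edgeR p of 0.05, against 6.78% of all genes tested. Their summed level was 13903 to 23759 CPM in normal and 21755 to 42281 CPM in coloboma embryos. The 6 retinal markers summed to 142 to 183 CPM in normal and 87.7 to 161 CPM in coloboma embryos. The lens markers summed to 29.3 CPM in coloboma embryo 3, against 472 to 1174 CPM in all others. Coloboma embryo 3 had the lowest alx1 of all, and without it the log2 values of alx1, alx4a and alx4b were -0.94, -0.53 and -0.51. The red blood cell markers summed to 877 to 2361 CPM and 829 to 1737 CPM, the epidermal markers to 15815 to 20755 CPM and 19188 to 23163 CPM, and the neuronal markers to 487 to 661 CPM and 429 to 512 CPM, in normal and coloboma embryos in that order. The muscle level of coloboma embryo 5, 21755 CPM, lay within the normal range. The part of these tissue levels in the alx values was not tested.

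Other genes of the same crest were set beside the alx genes. The lists here and below were chosen with earlier results of these data known. A share above that of all genes may therefore follow from the choice. Of 9 regulators of the periocular crest and anterior segment reported here, 4 were lower at an unadjusted p of 0.05 (4.9% of all genes tested were) and none at the adjusted threshold, with a median log2 fold change of -0.19 against 0.000747 over all genes tested. The forkhead gene foxf2a, active in craniofacial mesenchyme, measured 13.3, 10.04, 8.97 and 7.40 CPM in normal embryos 3, 4, 6 and 7. It measured 5.54, 4.83, 6.26, 4.805 and 4.88 CPM in coloboma embryos 3, 4, 5, 6 and 7 (log2 -0.92 ± 0.17, SE; edgeR adjusted p = 0.0595). All were below the normal embryos, as for 2.16% of all genes tested. The forkhead gene foxl1 (-1.03 ± 0.24, adjusted p = 0.131) was near alx1 in size, and its groups were close, with 1.08 to 2.18 CPM in normal and 0.727 to 1.035 CPM in coloboma embryos. The AP-2 factor gene tfap2b had a value of -0.55 ± 0.20 (adjusted p = 0.314). The forkhead gene foxc1a, a regulator of anterior segment development, was near 0 (-0.06 ± 0.12).

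Among 6 measured homeobox genes related to the alx genes, all had values below 0 (49.9% of all genes tested did) and 2 were lower at an unadjusted p of 0.05 (4.9% of all genes), but none at the adjusted threshold. These were prrx1b, a factor of limb and head mesenchyme (-0.35 ± 0.08, log2, SE; edgeR adjusted p = 0.129), and gsc, the goosecoid gene of head mesoderm and crest (-0.77 ± 0.25, adjusted p = 0.260). For prrx1b the normal embryos had 29.3 to 33.6 CPM and the coloboma embryos 22.3 to 26.5 CPM. Next by p was prrx1a (-0.14 ± 0.09, adjusted p = 0.560). The list had a median of -0.23. Values below 0 were also found for every gene of the periocular list and every retinal, red blood cell and neuronal marker. All muscle and epidermal markers lay above 0.

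The 14 genes of frontonasal and skull crest reported here were mixed, with 3 lower and 2 higher at an unadjusted p of 0.05, against 4.9% and 6.78% of all genes tested. None passed the threshold over all genes and the median was -0.10. The homeobox gene six2b (0.85 ± 0.21, log2, SE; edgeR adjusted p = 0.154) was the member with the smallest p, followed by the paired box gene pax7a (-0.40 ± 0.11, adjusted p = 0.196) and the homeobox gene six1b (0.42 ± 0.18, adjusted p = 0.400). Of 15 genes of pharyngeal arch crest, 7 were lower and none higher at an unadjusted p of 0.05, against 4.9% and 6.78% of all genes tested, none passed over all genes and the median was -0.30. The members with the smallest p were dlx4a (-0.69 ± 0.15, adjusted p = 0.121), dlx2a (-0.69 ± 0.16, adjusted p = 0.129), both homeobox genes of the arches, and barx1, a homeobox gene of arch mesenchyme (-0.60 ± 0.14, adjusted p = 0.131). Of the 7 lower genes, dlx2a and dlx1a lie on chromosome 9 of GRCz12tu, as zic2a does, and hand2 on chromosome 1, as zic2b does. Linkage to the disrupted copies of zic2a and zic2b was not tested.

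Genes of early and migrating crest were near the background of all genes. Of 9 measured, 4 had values below 0, against 49.9% of all genes tested, and 1 was lower at an unadjusted p of 0.05, against 4.9%. None passed over all genes and the median was 0.00544. Whether this list differs from the other crest lists was not tested. That member was the mesenchymal factor gene twist1a (-0.43 ± 0.16, log2, SE; edgeR adjusted p = 0.327), followed by tfap2e (-0.23 ± 0.22) and foxd3 (0.22 ± 0.22), and the general crest gene sox10 stood at 0.10 ± 0.20. The summed level of the list was 133 to 163 CPM in normal and 118 to 165 CPM in coloboma embryos. Of 12 pigment cell genes, 6 were lower at an unadjusted p of 0.05, against 4.9% of all genes tested. Over all genes 3 of them passed as lower, against 0.127% of all genes tested: gch2 (-0.88 ± 0.09, adjusted p = 0.00358), xdh (-0.998 ± 0.13, adjusted p = 0.0120) and aox3 (-0.87 ± 0.12, adjusted p = 0.0120), enzyme genes of yellow pigment cells or pteridine synthesis. Another of the 6 lower genes, dct (-0.45 ± 0.16), lies on chromosome 9 of GRCz12tu, as zic2a does, and linkage was not tested. Among 5 genes of the pectoral fin bud, another place of alx4 expression in vertebrates, none passed over all genes, the smallest p was that of hand2 (-0.46 ± 0.11, adjusted p = 0.131), a gene also listed for the arches, and the next were those of sall4 (0.10 ± 0.09) and fgf10a (0.13 ± 0.13).

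**Figure D5:**
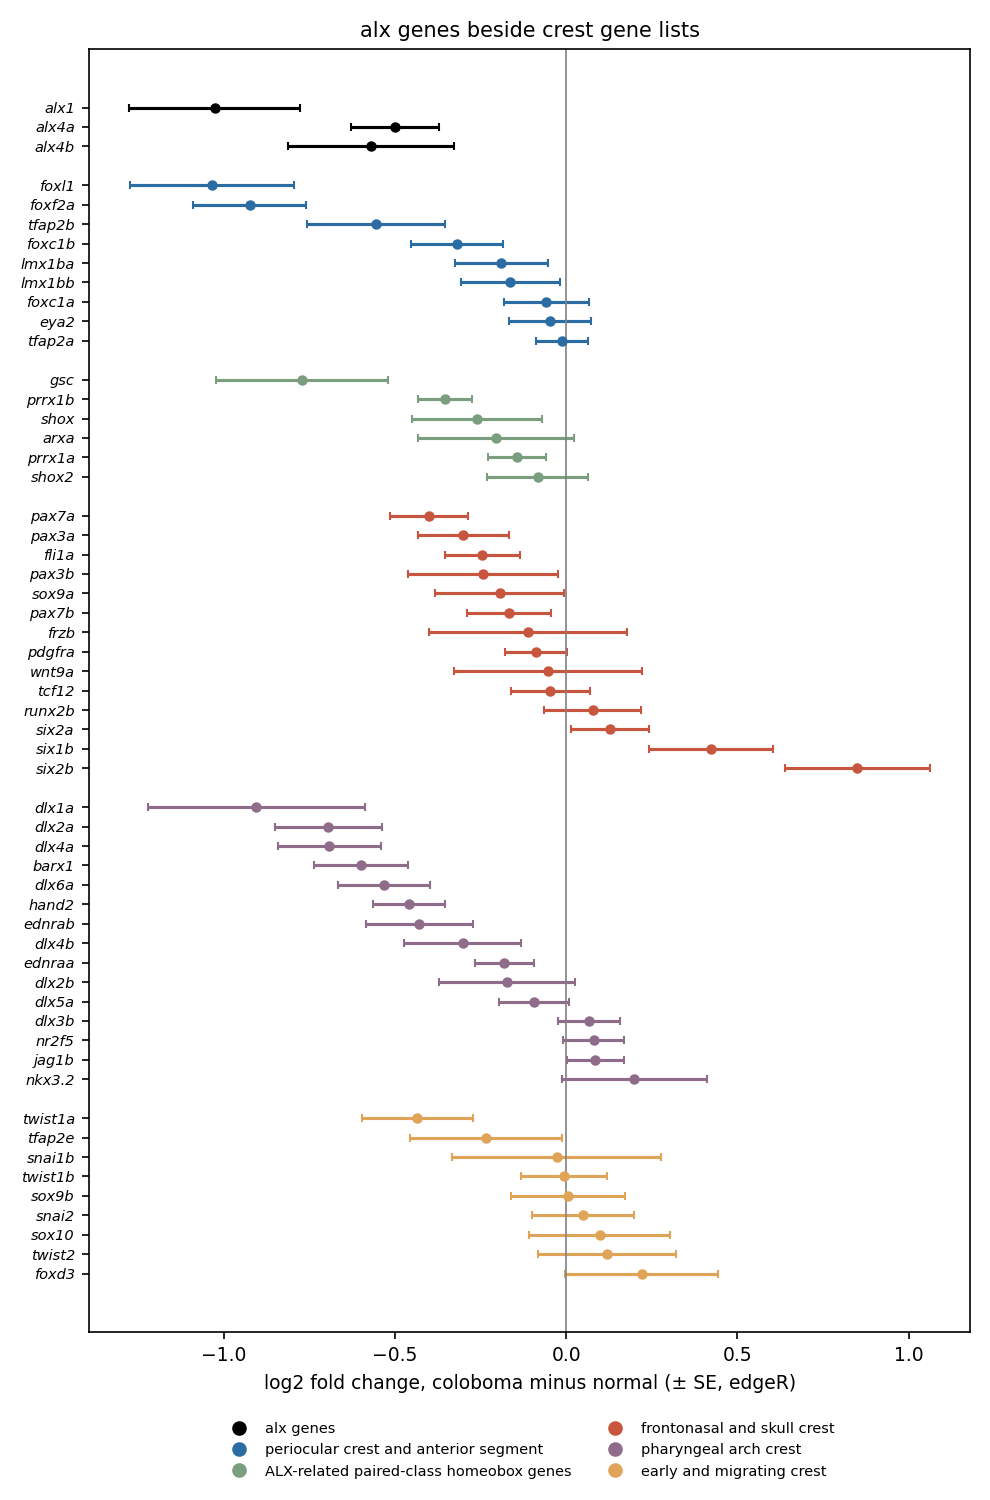
Log2 fold changes (coloboma minus normal, ± SE, edgeR) of the 3 alx genes and of the members reported here of 5 crest gene lists. The value of alx1, -1.03, is matched by foxl1 in the periocular list, while the early crest genes scatter around 0.

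Of the 11 hedgehog pathway genes, none was called by edgeR over all genes or at an unadjusted p of 0.05, which 11.7% of all genes tested passed, and the median was 0.05. The receptor gene ptch1 had a value of 0.13 ± 0.15. The 3 with the smallest p were gli2a (0.16 ± 0.09), smo (-0.13 ± 0.08) and gli3 (-0.15 ± 0.09). Among 7 optic stalk and ventral retina genes, 3 were lower at an unadjusted p of 0.05, against 4.9% of all genes tested, and none over all genes, namely vax2 (-0.99 ± 0.26, log2, SE; edgeR adjusted p = 0.169), foxd1 (-0.44 ± 0.17) and foxg1a (-0.47 ± 0.20). In the zic family 0 of the 6 genes reported here passed over all genes by edgeR. At an unadjusted p of 0.05, 2 were lower, zic6 (-0.43 ± 0.11, adjusted p = 0.154) and zic5 (-0.30 ± 0.11), against 4.9% of all genes tested, and the next by p was zic2a. In GRCz12tu zic5 lies on chromosome 9, as zic2a does, and linkage was not tested.

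The summed levels of these lists were related to the alx genes unevenly. A sum of CPM weighs each gene by its abundance, so a few genes set much of it. In normal embryos tfap2a averaged 99.2 CPM, where the periocular list summed to a median of 219 CPM. Likewise prrx1a averaged 55.2 CPM in the related homeobox list (median 112 CPM) and gch2 255 CPM in the pigment cell list (median 577 CPM). Unlike the other lists, these lists had sums that did not overlap between the groups. The pigment cell list summed to 531 to 618 CPM in normal and 331 to 427 CPM in coloboma embryos. The related homeobox list summed to 107 to 116 CPM and 87.5 to 102 CPM, in that order. Over the 9 embryos, r of log2 levels between alx1 and the summed pigment cell list was 0.88, and 0.58 with group means subtracted. For alx4a and alx4b it was 0.68 and 0.70, and -0.35 and 0.18 with group means subtracted. For alx1 and the related homeobox list r was 0.83, and 0.44 with group means subtracted. For alx4a and alx4b and that list it was 0.58 and 0.49, and -0.32 and -0.30 with group means subtracted. With the early crest list r was -0.30 for alx1, 0.45 for alx4a and 0.05 for alx4b, and -0.55, 0.73 and 0.05 with group means subtracted. With the periocular list r was 0.38 for alx1, 0.72 for alx4a and 0.48 for alx4b, and -0.10, 0.59 and 0.18 with group means subtracted. Tissue markers gave values of like size for alx1, with -0.73 for the summed muscle and 0.69 for the summed retinal markers, and -0.24 and 0.47 with group means subtracted.

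The genes whose level followed each alx gene most closely over the 9 embryos were different for each. Likeness was measured by Pearson's r of log2 CPM, and the 5 highest of 15293 genes were taken, a choice that by itself favours high values. For alx1 they were sorbs2a (an actin-associated adaptor; r = 0.974), ildr2 (0.969), the adhesion scaffold gene nedd9 (0.967), racgap1 (0.963), a regulator of cell division, and gria2a (0.956). None of these passed the test over all genes. In sorbs2a coloboma embryo 5 lay above the rest of its group, at 10.3 CPM against 6.92 to 9.03 CPM. A gene chosen for its likeness to alx1 would be likely to show this. For alx4a they were the transcriptional coregulator gene cited1 (r = 0.987), rftn2 (0.966), fbxl3a (0.960), suv420h1 (0.957) and panx1b (0.947). The level of cited1, likewise chosen for its likeness, was 9.73 to 11.3 CPM in normal embryos and 6.56 to 9.19 CPM in coloboma embryos, lowest in embryo 5. For alx4b they were the kinase gene dapk1 (r = 0.968), rnf11b (0.945), uap1 (0.935), gtf2e1 (0.930) and fancb (0.927).

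With the group means subtracted, which leaves only the variation among embryos of one phenotype, the leading genes changed for alx1 and alx4a. For alx1 they became dguok (r = 0.993), med19b (0.986), trappc12 (0.973), DSN1 (0.970) and lactb (0.965). For alx4a they became arrb2b (0.975), CDC42EP1 (1 of 2) (0.971), PACS1 (1 of 3) (0.966), hpca (0.966) and ca8 (0.965). Without the subtraction their r over the 9 embryos ran from 0.068 (lactb) to 0.907 (trappc12) for alx1. For alx4a it ran from 0.195 (hpca) to 0.658 (CDC42EP1 (1 of 2)). In the leading genes coloboma embryo 5 lay apart from its group, with 4.93 against 3.45 to 3.90 CPM of dguok and 61.6 against 76.8 to 93.9 CPM of arrb2b. For alx4b, rnf11b (0.989), uap1 (0.959) and dapk1 (0.941) appeared in both lists, with JAKMIP1 (0.959) and GLTPD2 (1 of 2) (0.939).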

How the data were processed

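The deposited table of estimated counts by the authors holds 1 whole number per gene and embryo. The submitters' processing notes list RSEM 1.2.18, Bowtie 1.1.1, CASAVA 1.8.2 and build Zv9, without roles; which annotation was used is not given in the sources used here. Values in TPM, deposited by the authors, cover the same genes and keep no depth. Libraries were made with a TruSeq RNA kit, per the labels' protocols, a kit that does not mark strand.

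Counts, rounded without effect, were tested with edgeR 4.0.16 in R 4.3.3 (filterByExpr with minimum count 10, TMM scaling, quasi-likelihood F test without covariates, threshold 0.05 after Benjamini-Hochberg over 21293 of 22337 genes). Log2 fold changes are coloboma minus normal. Their intervals (95%) use the SE from the fold change and F value. Exact permutations were two-sided over every split of the 9 embryos into 4 and 5. Ratios had 0.5 added to each count, and correlations used log2 CPM with a prior count of 2. DESeq2 1.42.0 and limma 3.58.1 served as alternatives. The steps were tested on simulated data. All 16 pairs of embryos within a group differed beyond sampling noise (chi-square per degree of freedom 26.1 to 75.7).

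The members, lists and tests were chosen with earlier results of these data known. Named genes were the alx genes, zic2a and zic2b, the 5 genes most like each alx gene (mean CPM of at least 1, no clone names), and in each list the genes past the threshold and the 3 with the smallest p; other named list members were chosen after their values were seen. Of 133 list entries, 128 matched by symbol, 1 by a synonym and 4 not. Some single genes are not reported here and were left out of the list counts, medians and sums, whatever their values. Chromosomes came from a RefSeq table of GRCz12tu. A row named cart1, an alias of alx1 in that table, was not joined to alx1, since cart1 also names a zebrafish neuropeptide gene. Reads shared by the duplicates alx4a and alx4b would be divided by the authors' estimator. The labels give no batch. Protein and promoter sequences were not used here.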

Additional observations from a re-analysis of the deposited data

Results flagged for a closer look

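In 24 checks of the alx levels, shares and ratios within a group for a sample far from the others, 2 values stood out, both from coloboma embryo 5 and both built on the same alx1 and alx4a values. Chance gives about 1 such flag in 20 groups. The share of alx1 in the summed alx TPM was 54.7% in that embryo against 26.7 to 33.1% in the other coloboma embryos. Its log2 ratio of alx1 to alx4a counts was -1.84 against -3.59 to -3.09. This embryo had 52 alx1 and 188 alx4a counts in the smallest library.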

How the results depend on the processing

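The log2 fold changes of alx1, alx4a and alx4b were below 0 under all 24 alternatives run for each, from -1.23 to -0.85, -0.58 to -0.40 and -0.75 to -0.35. The calls changed with DESeq2, where alx1 (-1.03, adjusted p = 0.00833) and alx4a (-0.49, adjusted p = 0.0189) passed, and for alx1 without coloboma embryo 5. Over all 24 alternatives the adjusted p ran from 0.00833 to 0.383 for alx1, 0.0189 to 0.422 for alx4a and 0.277 to 0.667 for alx4b. With each embryo left out in turn, the values ran from -1.23 to -0.91 for alx1, -0.55 to -0.41 for alx4a and -0.75 to -0.46 for alx4b. For the ratios to alx1 these ranges were -0.81 to -0.38 (alx4a) and -0.72 to -0.17 (alx4b), and for alx4a to alx4b 0.02 to 0.24. The count of genes past the threshold over the whole table was 44, against 577 with DESeq2 (365 higher, 212 lower, where all 9 embryos in edgeR gave 17 and 27), 86 at an adjusted p of 0.1 and 21 to 235 with an embryo left out (21 without normal embryo 3 or coloboma embryo 4, 25 without normal embryo 6, 27 without normal embryo 7 and 235, 165 higher and 70 lower, without coloboma embryo 5). The cause was not tested. Library size alone gave 12 higher and 33 lower. Without coloboma embryos 3 and 5 together alx1 stood at -1.17 (adjusted p = 0.0716).

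Embryo numbers are shared by the groups, but same-numbered embryos did not deviate together (r from -0.07 to 0.07, 1 of 4 closest to its own number). The labels do not say what a shared number means, and these correlations cannot exclude a shared origin. With the number as a replicate block over embryos 3, 4, 6 and 7, 18 genes passed, against 235 without the block in the same 8 embryos, and alx1, alx4a and alx4b stood at -1.22, -0.40 and -0.49 (adjusted p = 0.145, 0.187 and 0.381). The paired ratio differences were -0.81, -0.72 and 0.10 (exact sign-flip p = 0.125, 0.125 and 1), where 0.125 is the smallest p possible. Depth limits alx4b most, with 14 to 89 counts per embryo.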
